A study of Mus musculus with 7 samples.

Results

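Interferon-stimulated genes are the genes a cell switches on when interferon reaches it, and 38 of them were followed here across libraries of mouse granulocytes, white blood cells that include neutrophils, eosinophils and basophils. They were taken from a list of 38 gene symbols matched to the Ensembl identifiers of the count table, which holds 51789 genes, and all 38 had 1 row. The table covers 4 libraries from Alox15 wild-type cells (WT 1 to WT 4) and 3 from Alox15 knockout cells (KO 1 to KO 3), all given as untreated and prepared with a QuantSeq kit, whose reads come from the 3′ ends of polyadenylated RNA. Alox15 encodes a lipoxygenase, an enzyme that oxygenates polyunsaturated fatty acids. The strain, age, organ, sorting and deleted stretch of Alox15 are not given in the sources used here, and the labels do not say whether replicates are separate animals, so a p-value reflects only how far these libraries scatter, part of which may be technical.

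Type I interferons bind the receptor of Ifnar1 and Ifnar2, whose kinases Jak1 and Tyk2 phosphorylate STAT proteins. Stat2 and Irf9 are parts of the resulting complex, which binds a repeated GAAA element in the promoters of interferon-stimulated genes, while interferon-gamma acts through a palindromic TTC and GAA element. Neutrophils carry the receptors and make many of these transcripts, whose proteins sense foreign nucleic acid, block virus replication or feed back on the pathway.

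The sequence in front of the genes is shown because that repeated element is what the set is known to share. Promoter sequence was taken from a RefSeq table (GRCm38.p6), in which 29 of the 38 genes had an entry. Dhx58, Zbp1, Oas2, Mx1, Mx2, Usp18, Parp14, Ifi27l2a and Rtp4 did not. The 29 genes had 35 promoters there. In 26 of the 35, the 30 bases just after the start occur in a transcript of the gene in GENCODE, the annotation used here. The start of the rest is uncertain. The 250 bases before the RefSeq gene start were searched for GAAA NN GAAA, with N any base and on either strand. It was held by 13 of 29 genes (44.8%), against 936 of 27025 genes of the table (3.46%). Of the table's 32851 promoters, searched over the same length, 978 (2.98%) held it. In 39 other interferon-induced genes the share was 46.2%, and in 14 markers of mature neutrophils it was 0 of 14. Below, each run of 30 bases is printed 5′ to 3′ on the gene's own strand, and capitals mark the match, which reads TTTC NN TTTC where the element lies on the other strand.
Isg15, chr4:156200871-156200900, minus strand: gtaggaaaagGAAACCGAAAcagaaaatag
Ifit1, chr19:34640775-34640804, plus strand: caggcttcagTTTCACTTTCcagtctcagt
Ifit1, chr19:34640794-34640823, plus strand: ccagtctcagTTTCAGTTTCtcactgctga
Ifit3, chr19:34583363-34583392, plus strand: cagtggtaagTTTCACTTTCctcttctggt
Ifit3b, chr19:34607759-34607788, plus strand: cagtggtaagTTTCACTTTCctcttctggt
Stat2, chr10:128270266-128270295, plus strand: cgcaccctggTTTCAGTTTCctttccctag
Gbp2, chr3:142620594-142620623, plus strand: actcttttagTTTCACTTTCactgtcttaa
Gbp7, chr3:142530273-142530302, plus strand: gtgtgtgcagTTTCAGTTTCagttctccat
Oas3, chr5:120777715-120777744, minus strand: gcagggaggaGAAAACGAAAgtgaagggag
Rsad2, chr12:26456553-26456582, minus strand: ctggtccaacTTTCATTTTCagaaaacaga
Bst2, chr8:71537577-71537606, minus strand: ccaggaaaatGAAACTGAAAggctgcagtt

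Isg15, Bst2 and Gbp3 held overlapping matches of the same element, and each gene was counted once. Ifit3 and Ifit3b, neighbouring copies on chromosome 19, had the same 30 bases. The other genes with a match were Gbp3, Trim30a and Slfn5. RefSeq and GENCODE starts can differ. By the GENCODE coordinates printed for genes below, the Gbp2 match lies after the gene start at chr3:142620602. The Slfn5 match lies after its GENCODE start at chr11:82951349. The palindrome TTCNNNGAA, which reads alike on both strands, was found in 5 of 29 genes (17.2%), Samhd1, Gbp7, Isg20, Bst2 and Ifit2, against 8.13% of all genes in the table; Gbp7 and Bst2 held both elements, and in Bst2 the matches overlapped. These are matches of letters in a fixed window and no measurement of binding.

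Library totals ran from 3228292 to 5657192 counts. Alox15 itself had 1 count in KO 1 and 0 in the other 6 libraries, so it does not check the genotype. KO 2 and KO 3 carried female-type levels of X- and Y-linked transcripts and the other 5 libraries male-type levels, and the same pair has another stem in its sample description; only KO 1 shares both features with the wild type, so beyond it neither can be told apart from genotype. WT 2 and KO 3 stand apart from the other 5 in mature neutrophil markers. Levels are given as counts per 1000000 (CPM) on library sizes scaled by the trimmed mean of M-values. The summed level of 16 mature neutrophil markers was 3001 CPM in WT 2 and 2290 CPM in KO 3 against 12794 to 31927 CPM in the other 5. That of 12 T cell markers was 683 and 985 CPM in the same pair against 330 to 649 CPM, with WT 4 close to WT 2. Single T cell markers varied. Cd3g and Trbc2 were highest in that pair, whereas Cd3d and Lck were higher in WT 4 (212 and 168 CPM) than in WT 2 (202 and 155 CPM). Cd3d alone made up 441 CPM of the KO 3 sum. In bulk RNA, fewer cells of a type and less RNA per cell cannot be told apart. Of the markers of other granulocytes and mast cells, Epx, Mcpt8, Fcer1a and Ms4a2 were at 0 in all 7 libraries, as was Epcam of epithelium, which over 31979006 counts allows up to 0.0938 CPM each. The other eosinophil markers were Siglecf, between 0.596 and 11.4 CPM, and Prg2, with 2 counts in WT 1 alone, and the remaining basophil and mast cell marker, Cpa3, lay between 1.79 and 24.7 CPM. The 5 plasmacytoid dendritic cell markers summed to between 152 and 419 CPM, mostly from Ccr9 (115 to 343 CPM) and Cox6a2 (27.8 to 170 CPM), while Siglech reached at most 1.57 CPM. B cell markers summed to between 125 and 471 CPM. Stroma and endothelium markers summed to 282 CPM in WT 2 and 247 CPM in KO 3, against 92.8 to 208 CPM in the other 5. The part of these cells in the results below was not tested.

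The interferon-stimulated genes differed far more among libraries of 1 genotype than between genotypes. Together they took 0.368% of all counts in WT 1, 0.0764% in WT 2, 0.193% in WT 3 and 0.189% in WT 4. In the knockout they took 0.301% in KO 1, 0.244% in KO 2 and 0.0520% in KO 3. WT 2 and KO 3 were therefore lowest in their groups, and the groups overlapped over nearly the whole range. The widest Wilson 95% interval, that of WT 1, was 0.361% to 0.374%. Counting error was small beside these gaps, except between WT 3 and WT 4, whose intervals overlapped. Reads carry no molecular identifiers, and such intervals cover counting error only. Summed levels were 2124 ± 1360 CPM in wild type (SD, n = 4) and 2008 ± 1312 CPM in knockout (SD, n = 3). Leaving out Samhd1, the gene of the set with the most counts over the 7 libraries together, kept the order of the 7 libraries' extremes, with 0.313% in WT 1 and 0.0478% in KO 3.

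**Figure D1:**
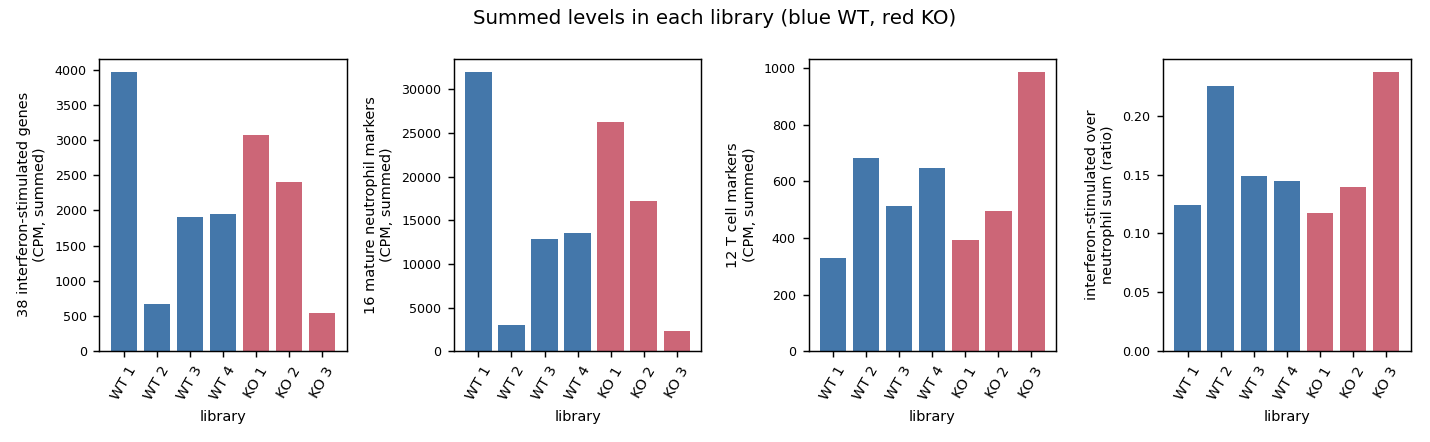
Summed CPM of the 38 interferon-stimulated genes, of the 16 mature neutrophil markers and of the 12 T cell markers, and the ratio of the first sum to the second, 1 bar per library (blue WT, red KO), linear axes from 0. The interferon-stimulated bar is lowest in KO 3 (542 CPM) and WT 2 (677 CPM) and highest in WT 1 (3961 CPM), the same libraries as for the neutrophil markers.

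The plot of summed levels shows both sums low in the same libraries. The neutrophil marker sum was 31927, 3001, 12794 and 13541 CPM in WT 1 to WT 4 and 26266, 17250 and 2290 CPM in KO 1 to KO 3. Set over that sum, the interferon-stimulated genes stood at 0.124, 0.226, 0.149 and 0.144 in wild type and 0.117, 0.140 and 0.237 in knockout. The ratio was thus highest, not lowest, in WT 2 and KO 3. Its range over the 7 libraries was 2.02-fold where that of the summed level was 7.31-fold. S100a8 and S100a9 made up most of the neutrophil sum in every library. Without these markers the ratio was 0.403, 0.733, 0.517 and 0.590 in wild type and 0.455, 0.392 and 0.952 in knockout. WT 2 and KO 3 were again highest, and the range was 2.43-fold. Whether the neutrophil content of a library sets the level of these genes was not tested.

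Gene by gene, the same libraries were low. After the filter on low counts, 34 of the 38 genes were tested, among 12506 genes in all, and WT 2 and KO 3 were the 2 lowest of the 7 libraries in 23 of these 34, against 16.1% of all tested genes. They were the 2 highest in 0 of 34, against 6.25% of all. WT 1 was the highest library for 21 of 34 genes (20.1% of all genes) and KO 1 for 7 (15.1%), while KO 3 was the lowest for 18 (19.6%) and WT 2 for 8 (12.6%). The highest library exceeded the lowest by a median of 9.004-fold over the 34 genes, where the median of the 11281 tested genes without a 0 was 3.10-fold. All 16 neutrophil markers showed the same lowest pair, as did 0 of 10 tested T cell markers and 6 of 10 markers of monocytes and macrophages.

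**Figure D2:**
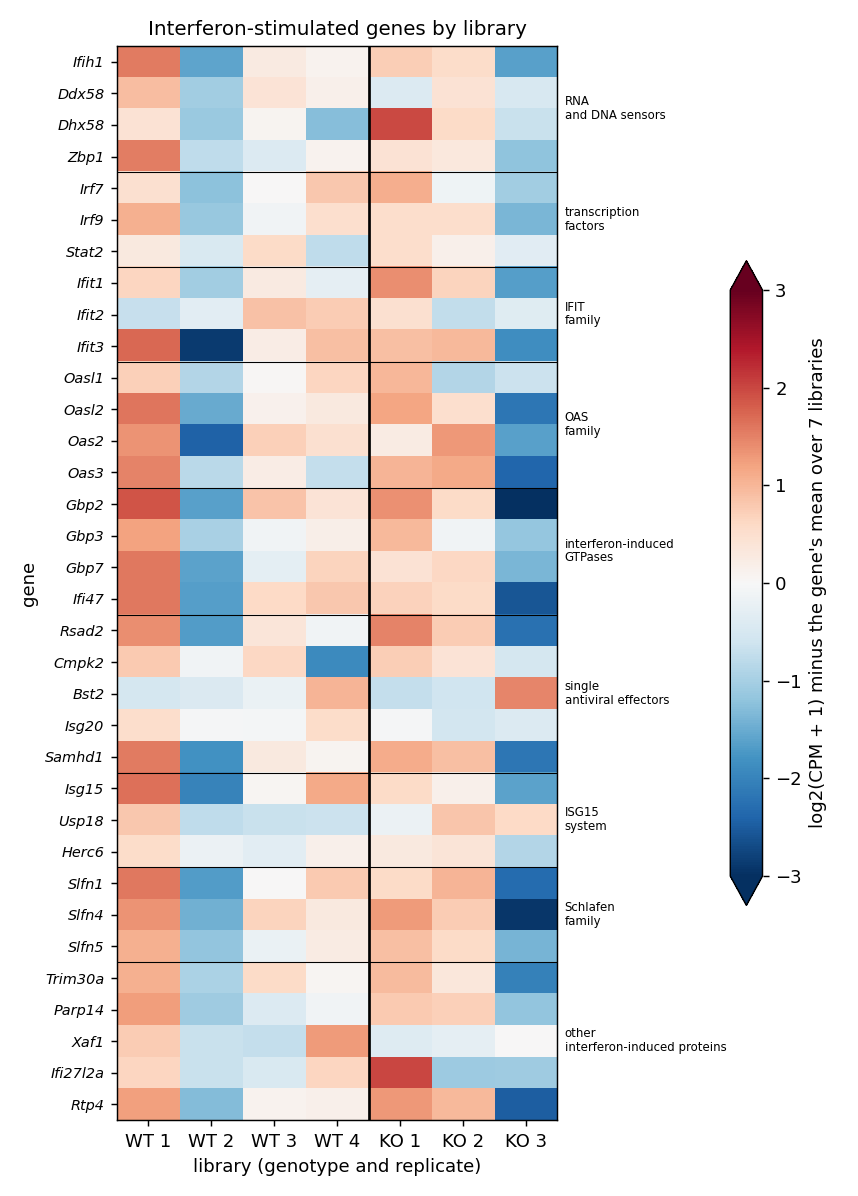
Log2(CPM + 1) of each tested interferon-stimulated gene (rows, grouped by role) in each library (columns), relative to that gene's mean over the 7 libraries. The columns of WT 2 and KO 3 are low for most genes, with 23 of 34 having exactly that pair lowest, and WT 1 is highest for 21.

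The interferons themselves were barely seen. Of 21 interferon genes, 19 had 0 counts in every library; Ifnz had between 0 and 13 counts and Ifng had 3 counts in WT 3, 1 in KO 3 and 0 elsewhere. The 6 receptor genes were all measured, and none passed the test. Ifngr1, the ligand-binding chain for interferon-gamma, stood at 216, 93.6, 153 and 59.3 CPM in the 4 wild-type libraries and 304, 287 and 77.9 CPM in the 3 knockout libraries. Ifnar2, a chain of the type I receptor, stood at 158, 74.4, 137 and 73.1 CPM in the 4 wild-type libraries and 149, 141 and 54.3 CPM in the 3 knockout libraries. For both receptors the groups overlapped and KO 3 lay far below KO 1 and KO 2. Il10rb, shared by the receptors for type III interferon and interleukin-10, ran from 29.4 CPM in KO 3 to 119 CPM in KO 1.

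Below the receptors, Jak1, which phosphorylates the STAT proteins, stood at 691, 283, 549 and 289 CPM in the 4 wild-type libraries and 732, 624 and 156 CPM in the 3 knockout libraries. Its lowest libraries were KO 3 and WT 2. Jak2 ranged from 13.05 CPM in KO 3 to 85.2 CPM in WT 1. Myd88, the adaptor through which most Toll-like receptors signal, had its 2 lowest values, 20.3 and 26.0 CPM, in the same pair. The adaptors' kinases Ikbke and Tbk1 spanned 14.4 to 40.0 CPM and 9.35 to 31.3 CPM over the 7 libraries.

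Among the sensors of foreign RNA and DNA, Ifih1 (MDA5, chr2:62595798-62646255), which binds long double-stranded RNA, stood at 75.0, 7.67, 29.99 and 26.7 CPM in the 4 wild-type libraries and 42.0, 36.8 and 7.40 CPM in the 3 knockout libraries. WT 2 and KO 3 were alike and low, and the other 5 libraries lay at 26.7 CPM or above. The log2 fold change, knockout minus wild type, was -0.28 ± 0.77 (SE). Ddx58 (RIG-I, chr4:40203773-40239828), which recognises RNA with a 5′ triphosphate, stood at 105, 26.2, 74.1 and 61.4 CPM in the 4 wild-type libraries and 41.6, 75.3 and 39.1 CPM in the 3 knockout libraries. Here KO 1 was nearly as low as KO 3, and the fold change was -0.36 ± 0.46. Zbp1, a sensor of left-handed nucleic acid that can trigger necroptosis, was highest in WT 1 at 51.1 CPM and lowest in KO 3 at 6.82 CPM.

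Dhx58 (LGP2, chr11:100694884-100704271), which modulates the other RNA helicases, had the largest positive difference of the set. It stood at 7.47, 1.88, 5.56 and 1.59 CPM in the 4 wild-type libraries and 23.7, 8.27 and 2.92 CPM in the 3 knockout libraries. KO 1 and KO 2 lay above all 4 wild-type libraries and KO 3 within them. The log2 fold change was 1.503 ± 0.82, with a 95% interval from -0.34 to 3.35, an unadjusted p of 0.0996 and an edgeR quasi-likelihood p adjusted by Benjamini-Hochberg of 1.00. Of the 4 sensors, Dhx58 alone had a point estimate above 0.

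All 3 transcription factors of the set were measured. Irf9 (chr14:55603571-55610030), the DNA-binding part of the STAT complex, stood at 82.8, 17.4, 36.4 and 55.6 CPM in the 4 wild-type libraries and 57.2, 56.4 and 14.4 CPM in the 3 knockout libraries, a log2 fold change of -0.17 ± 0.60. Stat2 (chr10:128270559-128292849), its partner, stood at 34.4, 20.05, 41.7 and 15.9 CPM in the 4 wild-type libraries and 40.6, 30.6 and 21.6 CPM in the 3 knockout libraries. Stat2 varied little for this set, its lowest library was WT 4, and its fold change was 0.15 ± 0.41. Irf7, the amplifier of interferon-alpha transcription, ran from 7.36 CPM in WT 2 to 40.8 CPM in KO 1. The annotation places Irf7 over Phrf1 on the other strand and Irf9 over Rnf31 on the same strand. Among genes given below, Oasl1 overlaps Gm13822 (up to 9.8 CPM) and Usp18 overlaps Gm44148 (up to 3.45 CPM), both on the other strand. Whether the counting used strand is not given in the sources, so reads of these pairs may be mixed. Of other factors outside the set, Irf1 stood at 583, 62.2, 195 and 349 CPM in the 4 wild-type libraries and 324, 352 and 48.9 CPM in the 3 knockout libraries, with WT 2 and KO 3 again lowest, whereas Irf8 stayed between 35.5 and 84.6 CPM.

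The IFIT genes lie side by side on chromosome 19 and encode proteins that bind foreign RNA lacking host cap methylation or hinder translation. Ifit1 stood at 15.2, 4.07, 11.5 and 7.68 CPM in the 4 wild-type libraries and 26.4, 15.6 and 2.34 CPM in the 3 knockout libraries. Knockout libraries were both the highest pair and the lowest, and the log2 fold change was 0.63 ± 0.74. Ifit3 stood at 34.7, 0.470, 11.5 and 19.1 CPM in the 4 wild-type libraries and 19.1, 19.9 and 1.95 CPM in the 3 knockout libraries, where the WT 2 value rests on 3 counts. Its fold change was -0.26 ± 1.10, the widest error of the set. Ifit2 followed neither gene: it was lowest in KO 2, at 3.68 CPM, and highest in WT 3, at 13.3 CPM. Ifit3 and Ifit3b share 19.1% of the 50-base stretches in the last 400 bases of Ifit3's transcripts, the part a 3′ library reads, so counts of the copies are uncertain.

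The OAS family makes or mimics the enzyme that builds 2-5A, the activator of RNase L. Oasl2 (chr5:114896936-114912234) stood at 245, 27.2, 87.4 and 97.4 CPM in the 4 wild-type libraries and 183, 113 and 16.9 CPM in the 3 knockout libraries. Its low libraries, WT 2 and KO 3, lay well under the other 5, and the log2 fold change was -0.13 ± 0.82. Oas3 (chr5:120753098-120777661), the long synthetase, stood at 53.5, 10.02, 21.7 and 10.9 CPM in the 4 wild-type libraries and 38.3, 41.3 and 2.73 CPM in the 3 knockout libraries, a fold change of 0.20 ± 0.87. KO 1 and KO 2 lay above 3 of the 4 wild-type libraries and KO 3 below all 4. Oas2 ran from 0.470 CPM in WT 2, again 3 counts, to 19.1 CPM in WT 1, and Oasl1 from 5.48 CPM in WT 2 to 22.9 CPM in KO 1.

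Guanylate-binding proteins coat bacteria and damaged vacuoles and are strong targets of interferon-gamma. Gbp2 (chr3:142620602-142638008) stood at 323, 27.1, 158 and 115 CPM in the 4 wild-type libraries and 225, 129 and 6.82 CPM in the 3 knockout libraries. KO 3 was the lowest library by far, at 35 counts, and WT 2 followed; the log2 fold change was -0.37 ± 1.01. Gbp7 (chr3:142530342-142550149) stood at 235, 24.9, 63.2 and 124 CPM in the 4 wild-type libraries and 106, 120 and 29.6 CPM in the 3 knockout libraries, a fold change of -0.39 ± 0.73. Gbp3, next to it, ran from 2.73 CPM in KO 3 to 18.2 CPM in WT 1. Ifi47, an immunity-related GTPase, ran from 4.09 CPM in KO 3 to 89.3 CPM in WT 1, and it overlaps Olfr56 in the annotation. All 4 tested GTPases had a point estimate below 0 and WT 2 and KO 3 as their lowest libraries.

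Rsad2 (viperin, chr12:26442746-26456452), which makes a chain-terminating nucleotide against viral polymerases, stood at 213, 24.7, 104 and 75.5 CPM in the 4 wild-type libraries and 231, 138 and 16.4 CPM in the 3 knockout libraries. KO 1 and WT 1 were close to each other at the top, as KO 3 and WT 2 were at the bottom, and the log2 fold change was 0.30 ± 0.85. Cmpk2, its neighbour on chromosome 12 and a nucleotide kinase, had another order: it was lowest in WT 4, at 3.44 CPM, and highest in WT 1, at 27.8 CPM. Samhd1 (chr2:157097533-157135265), which depletes deoxynucleotides, stood at 584, 56.2, 245 and 212 CPM in the 4 wild-type libraries and 435, 376 and 43.8 CPM in the 3 knockout libraries. The Samhd1 means were 274 ± 223 CPM in wild type (SD, n = 4) and 285 ± 211 CPM in knockout (SD, n = 3), a fold change of 0.05 ± 0.84.

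Isg20 (chr7:78913424-78920396), an exonuclease for single-stranded RNA, varied least, with 17.9, 11.7, 11.5 and 18.3 CPM in the 4 wild-type libraries and 11.7, 7.96 and 8.76 CPM in the 3 knockout libraries. Its range was 2.29-fold, and only KO 1 reached the wild-type values. The log2 fold change was -0.64 ± 0.42, with a 95% interval from -1.59 to 0.30 and an unadjusted p of 0.157 in edgeR's quasi-likelihood test. Bst2 (tetherin, chr8:71534255-71537456), which holds budding virus on the cell surface, stood at 12.8, 13.8, 16.5 and 40.0 CPM in the 4 wild-type libraries and 11.3, 12.3 and 54.3 CPM in the 3 knockout libraries. It ran against most of the set: KO 3 was its highest library and WT 4 came next, with the other 5 between 11.3 and 16.5 CPM. Bst2 falls outside the rule for per-library values and was chosen after its values were seen.

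Isg15 (chr4:156199424-156200818) encodes a ubiquitin-like protein that is joined to other proteins, in mice with the help of Herc6, and removed by Usp18. Isg15 stood at 99.5, 7.05, 32.6 and 69.9 CPM in the 4 wild-type libraries and 46.9, 34.6 and 9.54 CPM in the 3 knockout libraries. WT 2 and KO 3 were again the low pair; the fold change of -0.78 ± 0.82 on the log2 scale, with a 95% interval from -2.63 to 1.08, was the most negative of the set. Usp18 (chr6:121245906-121270917), also a brake on the type I receptor, stood at 14.0, 4.07, 4.37 and 4.50 CPM in the 4 wild-type libraries and 6.61, 14.4 and 12.1 CPM in the 3 knockout libraries. WT 1 reached the level of KO 2 and KO 3 while the other wild-type libraries stayed below all 3 knockouts, and the fold change was 0.72 ± 0.62. Herc6 (chr6:57581000-57664632) stood at 108, 64.2, 58.2 and 81.8 CPM in the 4 wild-type libraries and 90.6, 95.3 and 39.5 CPM in the 3 knockout libraries. It had the smallest error of the set, with a fold change of -0.05 ± 0.37 and a 95% interval from -0.88 to 0.77.

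Schlafen genes, clustered on chromosome 11, restrain growth of T cells and myeloid cells. Slfn1 (chr11:83116849-83122670) stood at 283, 29.0, 94.9 and 163 CPM in the 4 wild-type libraries and 141, 191 and 18.3 CPM in the 3 knockout libraries, a log2 fold change of -0.28 ± 0.84. Slfn4 (chr11:83175186-83190216), a gene of myeloid cells, stood at 291, 40.9, 181 and 139 CPM in the 4 wild-type libraries and 275, 193 and 14.2 CPM in the 3 knockout libraries, a fold change of -0.02 ± 0.87. Both, and Slfn5 with 15.2 CPM in KO 3 and 87.3 CPM in WT 1, had WT 2 and KO 3 as their lowest libraries.

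Of the remaining genes, Trim30a (chr7:104409025-104465193), a brake on NF-kB and inflammasome signalling, stood at 439, 107, 309 and 216 CPM in the 4 wild-type libraries and 403, 264 and 50.2 CPM in the 3 knockout libraries, a log2 fold change of -0.16 ± 0.67. Parp14 (chr16:35832874-35871544), a mono-ADP-ribosyltransferase, stood at 199, 39.0, 62.0 and 76.5 CPM in the 4 wild-type libraries and 143, 137 and 35.6 CPM in the 3 knockout libraries, a fold change of 0.16 ± 0.63. WT 1 was the highest library for both genes and KO 3 the lowest. Xaf1 (chr11:72301629-72313733), which promotes cell death by binding XIAP, stood at 25.7, 8.77, 8.54 and 36.8 CPM in the 4 wild-type libraries and 10.9, 11.9 and 14.8 CPM in the 3 knockout libraries. The 3 knockouts lay between the low and the high wild-type libraries, and the fold change was -0.66 ± 0.57. Ifi27l2a, a short interferon-induced protein, was at 96.6 CPM in KO 1 and between 10.4 and 37.3 CPM in the other 6 libraries. Rtp4, a chaperone of G protein-coupled receptors, ran from 5.45 CPM in KO 3 to 86.7 CPM in KO 1.

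Low counts kept 4 genes out of the test. Ifit3b had 4, 0, 9 and 14 counts in wild type and 20, 2 and 3 in knockout. Mx1, an antiviral dynamin-like GTPase, had 1, 8, 0 and 0 counts in wild type and 4, 7 and 0 in knockout. Its copy Mx2 had 0 counts in all 4 wild-type libraries, which allows up to 0.165 CPM over the group, and 13, 2 and 0 counts in knockout, so it was seen mainly in KO 1. Ifi44 had 0, 13, 1 and 0 counts in wild type and 0, 11 and 3 in knockout. Fitted without the filter, 0 of 38 genes were called by edgeR, with a lowest adjusted p of 0.961. That p was Mx2's, whose unadjusted edgeR p of 0.0428 was the only one under 0.05 among the 38, beside 437 of 20744 genes fitted.

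Not all genes followed the pair WT 2 and KO 3. The 11 tested genes whose 2 lowest libraries were others were Dhx58, Stat2, Ifit2, Oasl1, Cmpk2, Bst2, Isg20, Usp18, Herc6, Xaf1 and Ifi27l2a. WT 1 exceeded WT 2 by a median of 5.04-fold over the 34 tested genes, 11.5-fold over the neutrophil markers and 0.954-fold over all tested genes. KO 1 exceeded KO 3 by 5.26-fold, 10.5-fold and 1.02-fold in the same order. These libraries have the highest and lowest summed levels of each genotype and were chosen with those values known. Median ratios above 1 for this set in both genotypes follow from that choice. In the median the step was smaller for the interferon-stimulated genes than for the neutrophil markers, and that difference was not tested.

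**Figure D3:**
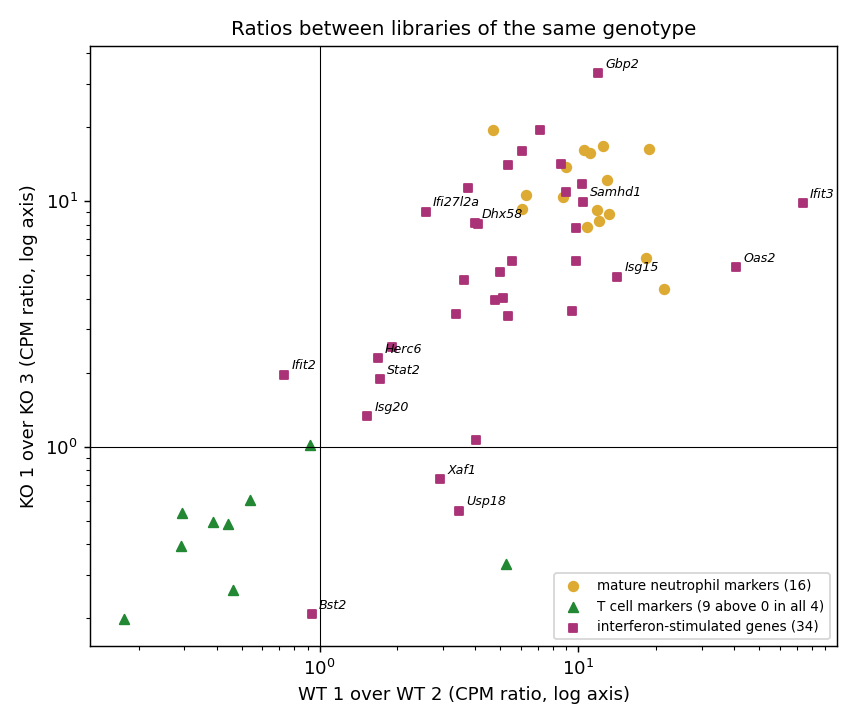
Each point is 1 gene (squares interferon-stimulated, circles mature neutrophil markers, triangles the 9 T cell markers above 0 in all 4 libraries), with the CPM ratio of WT 1 over WT 2 on the x axis and of KO 1 over KO 3 on the y axis, both log axes; lines mark a ratio of 1. Most interferon-stimulated genes lie above 1 on both axes, with medians of 5.04 and 5.26, and Bst2 lies below 1 on both. The libraries compared were chosen as those with the highest and lowest summed level of their genotype. The WT 2 values of Ifit3 and Oas2 rest on 3 counts each.

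Knockout and wild type were not separated by any of these genes. The edgeR quasi-likelihood test, adjusted by Benjamini-Hochberg over 12506 genes, called 0 of 34 genes higher and 0 lower at an adjusted p under 0.05, against 0% of all tested genes in each direction; the adjusted p was 1.00 for every one. At an unadjusted p under 0.05 the counts were 0 of 34 and 154 of 12506 genes (1.23%). DESeq2 called 0 of the 34, against 0.008% of all genes, and limma-voom called 0, against 0%. The point estimate lay above 0 for 14 and below 0 for 20 of the 34, against 51.4% of all tested genes above 0, and the median log2 fold change was -0.13 beside 0.01 over all tested genes. Groups did not overlap in 0 of 34 genes, against 3.13% of all, and under upper-quartile or total-count scaling they did not overlap in 1, Isg20, against 2.91% and 2.80% of all.

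These values leave wide room. Fold changes ran from -0.78 for Isg15 to 1.503 for Dhx58, and the 95% interval lay wholly within 2 log2 units, 4-fold either way, for 19 of the 34 genes and within 1 unit for 1, Herc6. The median standard error was 0.73 for the set and 0.49 for all tested genes, and the median residual SD between libraries of a group was 1.19 against 0.63 log2 units. In simulated data with the spread of this comparison over 12506 genes, the test recovered 2% of genes changed 2-fold, 38% changed 4-fold and 76% changed 8-fold. The changed genes were drawn from all tested genes above 8 CPM, not from this set, whose median spread was wider. Recovery for the set itself was not simulated.

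**Figure D4:**
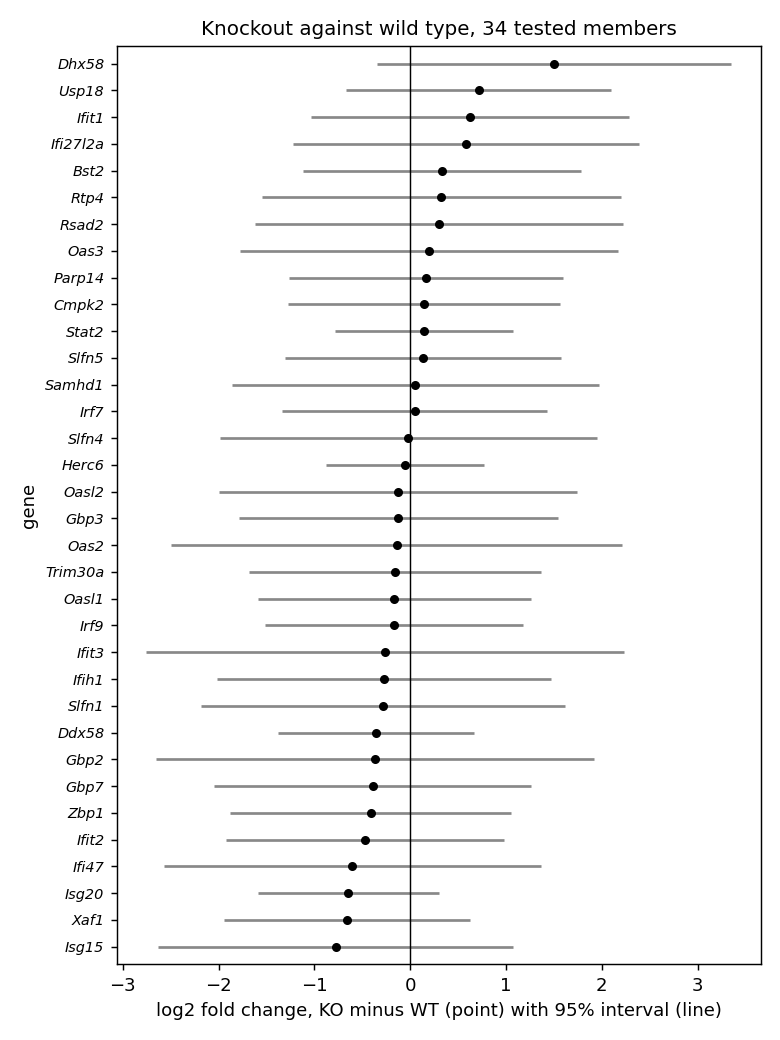
Log2 fold change, knockout minus wild type, of the 34 tested genes (points) with 95% intervals (lines) from the edgeR fit over all genes, ordered by fold change. Every interval spans 0; Herc6 has the narrowest and Dhx58 the highest point.

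The direction of the set turned on some single libraries. With all 7 libraries 14 of 34 genes were above 0; without WT 1 it was 28 of 34, against 53.6% of all tested genes, and without KO 3 it was 27 of 36, against 46.9%. Without KO 1 it was 4 of 35, against 47.7%, and without WT 2 it was 8 of 34, against 49.3%. The other libraries moved it less. Without WT 3 it was 14 of 34, against 51.2%, and without WT 4 it was 10 of 34, against 50.9%. Without KO 2 it was 13 of 35, against 49.1%. Without WT 2 and KO 3 together it was 17 of 35, against 46.9%, with a median log2 fold change of -0.01. With the neutrophil score as a covariate 8 of 34 were above 0 against 47.5% of all genes. With the description stem as covariate it was 24 of 34, against 48.4%. KO 2 and KO 3 have the other stem, so the stem fit in effect sets KO 1 alone against the wild type. limma-voom with quality weights placed 26 of 34 above 0, against 53.3%. With the neutrophil score and with limma-voom, 0 of 34 genes were called at an adjusted p under 0.05. Markers of monocytes and macrophages were summed to 540, 215, 528 and 627 CPM in the 4 wild-type libraries and 1551, 814 and 294 CPM in the 3 knockout libraries, with 10 of 10 point estimates above 0, and their part in the result was not tested.

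**Figure D5:**
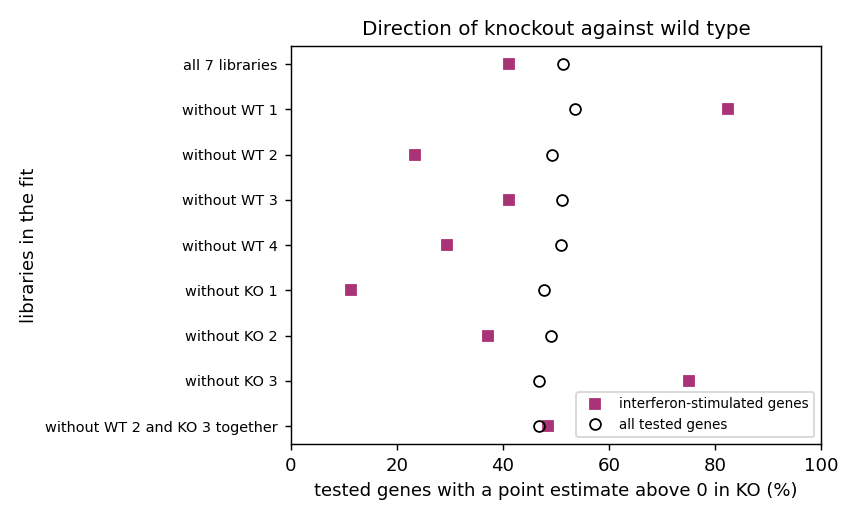
Percent of tested genes with a point estimate above 0 in knockout, for interferon-stimulated genes and for all tested genes, with all 7 libraries and with 1 library or WT 2 and KO 3 left out. The share of interferon-stimulated genes moves from 11.4% without KO 1 to 82.4% without WT 1, while that of all genes stays between 46.9% and 53.6%.

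The wider pathway gave the same absence of calls. Of 101 further genes of interferon signalling, 100 were matched and 74 tested. edgeR called 0 of the 74, against 0% of all tested genes. Point estimates lay above 0 for 43 and below 0 for 31, against 51.4% above 0 over all tested genes. Of the 74, 1 was under an unadjusted edgeR p of 0.05, against 1.23% of all tested genes. That gene, Ifi35, an interferon-induced leucine-zipper protein, stood at 17.6, 17.9, 10.9 and 12.4 CPM in the 4 wild-type libraries and 49.96, 23.0 and 19.1 CPM in the 3 knockout libraries. Its groups did not overlap, which held for 1 of the 74 and for 3.13% of all tested genes. KO 1 was far above the rest, and the log2 fold change was 1.06 ± 0.42 with an unadjusted edgeR p of 0.0326. All 5 negative regulators had point estimates below 0; Socs3, the inhibitor of JAK kinases, stood at 429, 48.5, 233 and 375 CPM in the 4 wild-type libraries and 281, 226 and 35.8 CPM in the 3 knockout libraries, and Ptpn6, the phosphatase SHP-1, ran from 342 CPM in KO 3 to 933 CPM in WT 1. The pair WT 2 and KO 3 was lowest in 35 of the 74, against 16.1% of all tested genes.

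Some interferon-induced genes of the wider list had other lowest libraries and narrower ranges. Ly6e, a surface protein of lymphoid and myeloid cells, stood at 374, 374, 360 and 537 CPM in the 4 wild-type libraries and 480, 438 and 476 CPM in the 3 knockout libraries. Psmb9, a subunit of the immunoproteasome, stood at 170, 219, 217 and 369 CPM in the 4 wild-type libraries and 135, 142 and 231 CPM in the 3 knockout libraries. Ly6e spanned 1.49-fold and Psmb9 2.73-fold over the 7 libraries, and in neither were WT 2 and KO 3 the low pair. Slfn2 did have that pair lowest, at 45.1 and 63.7 CPM, under 153 to 479 CPM in the other 5.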

How the data were processed

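QuantSeq 3′ RNA sequencing of 7 libraries was available as a single table of gene counts, which the authors deposited. RSEM 1.2.3, DESeq2 and mm10 stand in the submitters' processing notes without a stated role. All counts the authors deposited are integers and could be RSEM estimates after rounding, and the handling of reads that fit several genes is not given in the sources used here. Groups came from the sample titles. Symbols, coordinates (GRCm38, the build of mm10) and transcripts came from GENCODE M21: 51596 genes had a symbol and 193 did not.

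All genes were fitted together with edgeR 4.0.16 in R 4.3.3 (filterByExpr, TMM scaling, robust quasi-likelihood F test, Benjamini-Hochberg adjustment, calls at an adjusted p under 0.05). The standard error is the fold change over the root of F. Alternatives were RLE and upper-quartile factors, DESeq2 1.42.0, limma 3.58.1 (voom with quality weights), no filter, at least 5 CPM in 3 libraries, each library left out, WT 2 and KO 3 left out, a replicate block, and the description stem or the neutrophil score (mean log2 CPM of 16 markers, prior count 2) as a covariate. The order of libraries was also computed under other scalings, chosen after seeing the data.

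The 38 genes and all lists were chosen with earlier results of these data known. Values per library are given for the 2 tested genes of each role with the highest mean log2 CPM and the 3 per direction with the smallest unadjusted p. Of the wider pathway, the 3 with the highest mean log2 CPM per list were eligible. Sums are given for the marker lists of mature neutrophils, T cells, B cells, plasmacytoid dendritic cells, monocytes and macrophages, and stroma and endothelium. Simulated data (200 genes changed among those above 8 CPM) gave the recovery rates, with 5 false calls per run over 3 runs. No 2 libraries of a group agreed within sampling noise. The values of 1 gene of the wider pathway list are not reported here.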

Additional observations from a re-analysis of the deposited data

Results flagged for a closer look

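Among the 36 wild-type groups of 4 libraries examined, 2 held a library far from the others, where chance gives about 1 in 20. For Bst2, WT 4 at 40.0 CPM lay apart from 12.8, 13.8 and 16.5 CPM, a gap of 0.866 of the group's range. For Usp18, WT 1 at 14.0 CPM lay apart from 4.07 to 4.50 CPM, a gap of 0.957 of the range.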

How the results depend on the processing

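edgeR called 0 genes in every alternative fit, and DESeq2 called 1, Impdh2-ps, which is not an interferon-stimulated gene. For the 22 genes given in full, 374 values under alternatives held 308 of the same sign, 66 of the other sign and 0 past the threshold, with a lowest adjusted p of 0.888; Ddx58, Dhx58 and Isg20 kept their sign throughout. The number of tested genes above 0 was 14, against 26 with limma-voom and 8 with the neutrophil score. It was 24 with the description stem, a fit in which KO 1 alone stands for the knockout. With single libraries left out it was 4 to 28. Without WT 1 or KO 3 most genes were above 0, and without KO 1 or WT 2 most were below. Groups did not overlap in 0 genes, and in 1, Isg20, under upper-quartile or total-count scaling (2.91% and 2.80% of all genes); the number with WT 2 and KO 3 lowest was 23, 23, 22 and 22 under TMM, RLE, upper-quartile and total-count scaling. The cause of these shifts was not tested.

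Log2 fold changes that changed sign were, with limma-voom, Ifih1 0.43, Irf9 0.36, Ifit3 1.202, Oasl2 0.39, Gbp7 0.46, Isg15 0.097, Herc6 0.27, Slfn1 0.46, Slfn4 0.24 and Trim30a 0.033. With the description stem they were Ifih1 0.28, Irf9 0.26, Ifit3 0.23, Oasl2 0.68, Gbp2 0.53, Usp18 -0.017, Herc6 0.22, Slfn4 0.76 and Trim30a 0.59. With the neutrophil score they were Oas3 -0.21, Rsad2 -0.013 and Samhd1 -0.11. Without WT 2 and KO 3 together they were Oasl2 0.012, Herc6 0.13, Slfn4 0.16 and Trim30a 0.012.

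With single libraries left out, Ifih1 ranged from -0.66 to 0.38, Irf9 from -0.45 to 0.19, Stat2 from -0.10 to 0.40, Ifit1 from -0.11 to 1.09, Ifit3 from -0.67 to 0.36 and Oasl2 from -0.81 to 0.52. Oas3 ranged from -0.22 to 0.90, Gbp2 from -1.20 to 0.22, Gbp7 from -0.73 to 0.23, Rsad2 from -0.43 to 0.87 and Samhd1 from -0.39 to 0.69. Herc6 ranged from -0.26 to 0.20, Slfn1 from -0.84 to 0.24, Slfn4 from -0.66 to 0.48, Trim30a from -0.77 to 0.27 and Parp14 from -0.13 to 0.79. Genes that kept their sign also moved. Dhx58 ranged from 0.43 without KO 1 to 1.92 without KO 3, and Ddx58 from -0.72 without KO 2 to -0.066 without WT 1. Isg20 ranged from -0.82 without KO 1 to -0.53 without WT 4.

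With the replicate block, 10 of 34 were above 0, against 50% of all genes, with a median of -0.15, edgeR called 0 genes, and the sign changed for Stat2 at -0.028, Oas3 at -0.42, Samhd1 at -0.15 and Xaf1 at 0.0081. Deviations from the group mean in same-numbered libraries correlated at 0.35, -0.22 and -0.18. KO 1 and KO 2 correlated best with WT 1, at 0.35 and 0.26, and KO 3 with WT 2, at 0.47. Such deviations are not independent within a group, so they cannot decide whether equal numbers mark pairs.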

Other observations

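Oas1a and Oas1g, neighbouring synthetase genes of the wider pathway list, were counted in nearly exclusive libraries, and were picked after their values were seen. Oas1g had 70, 0, 0 and 0 counts in wild type and 82, 0 and 9 in knockout. Oas1a had 3, 59, 4 and 50 counts in wild type and 0, 46 and 17 in knockout. The libraries with many Oas1g counts, WT 1 and KO 1, were of either genotype and had few Oas1a counts. In the last 400 bases of Oas1a's transcript, 43.6% of the 50-base stretches also occur in Oas1g, so the split of reads between these copies is uncertain.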
